A study of Mus musculus with 12 samples.

Results

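The miR-29 family was measured in serum bEVs (blood extracellular vesicles) of Rag1-/- mice, with and without T cells. Its 3 guide strands, mmu-miR-29a-3p, mmu-miR-29b-3p and mmu-miR-29c-3p, were taken by name from a table of 1995 features (1885 miRNAs and 110 piRNAs). The rule names them without a threshold on any value, but the family was chosen with earlier results of these data known. The 12 libraries came from 12 Rag1-/- mice, 1 library per mouse. All of them lack mature T and B cells of their own because the Rag1 gene is deleted, and the methods describe adult males on the C57BL/6 background. In the T cell group, 6 mice had received T cells purified from WT spleen by intravenous injection, and in the medium group 6 mice had received vehicle. These libraries include no WT mice, and B cells of the recipients were not measured here. The comparison asks how the RNA cargo of bEVs differs when T cells are present.

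miR-29 miRNAs are small RNAs of which the 3p arm is the guide strand, the strand that is loaded into Argonaute and pairs with target mRNAs. The 5p arm is the passenger strand and is mostly degraded. The family is best known for repressing collagen and other extracellular matrix genes, and it also represses the DNA methyltransferases Dnmt3a and Dnmt3b. In mouse T cells, miR-29 restrains interferon-γ production and T helper 1 differentiation, and miR-29a is abundant in many tissues and blood cells.

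The mature guide strands are shown because the counts of the members depend on how well reads of these sequences can be told apart. Capitals mark the seed (bases 2 to 8 from the 5′ end), which decides most target pairing.
mmu-miR-29a-3p: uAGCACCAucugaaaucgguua
mmu-miR-29b-3p: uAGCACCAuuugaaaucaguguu
mmu-miR-29c-3p: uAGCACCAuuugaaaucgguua
The sequences are those of RefSeq (GRCm38.p6). All 3 share the seed AGCACCA, and of the 1617 miRNAs of the table that matched a RefSeq mature sequence only these 3 carry it. Counted from the 5′ end, miR-29a-3p and miR-29c-3p differ by a single base, C10U. miR-29b-3p differs from miR-29a-3p by C10U, G18A, U21G and A22U over the 22 bases they share. A read with 1 error at position 10 could be counted as the other of miR-29a-3p and miR-29c-3p, so the lower counts of miR-29c-3p are uncertain to that extent. miR-29b-3p ends in AGUGUU, from position 18, a hexamer described as a nuclear import signal of miR-29b in human cells. AGUGUU was present in 12 of the 1617 matched miRNAs (0.742%). GGAG, a motif described for miRNA export into exosomes of human T cells, was present in 231 of them (14.3%) and in none of the 3 members. Both motifs were searched on the miRNA strand only, and a match is a description of letters.

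The members come from 4 hairpins in 2 clusters (GRCm38.p6). The hairpins are shown with the guide strand in capitals, because miR-29b-3p is cut from both clusters.
Mir29a: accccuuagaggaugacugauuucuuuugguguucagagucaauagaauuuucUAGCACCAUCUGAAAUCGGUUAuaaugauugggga
Mir29b-1: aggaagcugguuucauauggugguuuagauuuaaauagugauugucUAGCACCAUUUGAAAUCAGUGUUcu
Mir29b-2: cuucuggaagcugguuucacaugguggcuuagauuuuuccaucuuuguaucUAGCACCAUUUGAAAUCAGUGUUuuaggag
Mir29c: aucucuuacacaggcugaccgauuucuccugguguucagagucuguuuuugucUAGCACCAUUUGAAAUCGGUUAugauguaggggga
Mir29a lies at chr6:31062660-31062747 and Mir29b-1 at chr6:31063023-31063093, both on the minus strand with 275 bases between them. Mir29b-2 lies at chr1:195037040-195037120 and Mir29c at chr1:195037547-195037634, both on the plus strand with 426 bases between them. In the GENCODE M21 annotation, Mir29b-2 and Mir29c lie in an exon of the non-coding transcript A330023F24Rik on the same strand, and opposite an exon of Cd46, a complement regulator gene, on the other strand. Mir29b-1 overlaps the end of the lincRNA Gm27019. The mature miR-29b-3p of both clusters is identical, so its count cannot be assigned to either.

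Total counts per library were 75475 to 130106 in the T cell group and 48997 to 116048 in the medium group. A feature had a median count of 15 to 30 in a library. T cell replicate 2 and medium replicate 3 held no count from 1 to 9, unlike the other 10 libraries, and T cell replicate 2 also had the highest sums of the red blood cell, T lymphocyte, and platelet and myeloid marker miRNAs and of both regulator lists described further on. Levels are CPM (a count relative to the library size) after TMM scaling, which is meant to remove composition differences between libraries, and fold changes are those of T cells over medium. In bEVs, more vesicles of a source and more RNA per vesicle cannot be told apart. Levels of different miRNAs also carry the ligation bias of the library preparation, which was not measured.

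All 3 guide strands had higher mean levels in bEVs of mice with T cells, and miR-29a-3p had the largest difference of the 3. The mean of miR-29a-3p was 14288 ± 9765 CPM in the T cell group and 4647 ± 2066 CPM in the medium group (SD, n = 6 each). miR-29b-3p averaged 1226 ± 434 CPM against 630.3 ± 294 CPM, and miR-29c-3p 860.2 ± 389 CPM against 438 ± 97.4 CPM (SD, n = 6 each). DESeq2 called all 3 higher, whereas edgeR and limma voom called none of them after adjustment over all features.

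**Figure D1:**
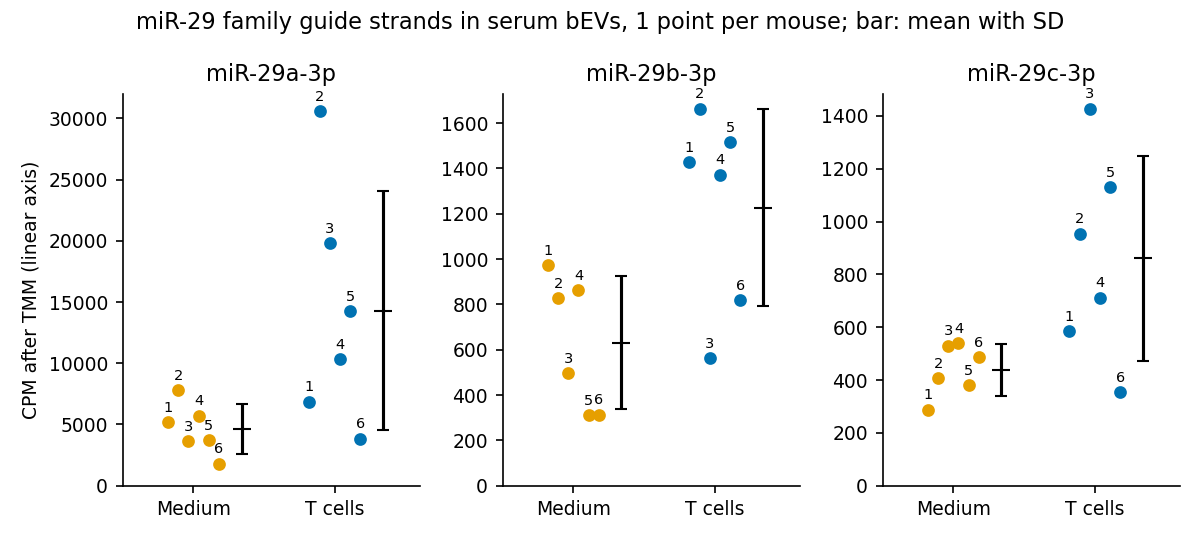
CPM after TMM of the 3 guide strands (linear axes from 0, a different scale in each panel), with 1 numbered point per mouse, medium in orange and T cells in blue. Black bars give the mean with SD. The groups overlap for every member, and T cell replicate 2 is the highest library for miR-29a-3p at 30601 CPM.

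miR-29a-3p was the most abundant member in 12 of 12 libraries and ranked from 9 to 18 among all features of a T cell library and from 11 to 34 in a medium library. With T cells its levels were 6869, 30601, 19825, 10322, 14272 and 3837 CPM in replicates 1 to 6. With medium they were 5197, 7795, 3630, 5727, 3730 and 1804 CPM. T cell replicates 2, 3, 4 and 5 lay above the highest medium library, replicate 2, while T cell replicates 1 and 6 lay within the medium range. At least 4 T cell libraries above every medium library were seen for 5.64% of the tested features. The counts behind these levels were 455 to 2632 with T cells and 115 to 617 with medium. The log2 fold change was 1.62 (standard error 0.46, 95% interval 0.65 to 2.59; edgeR, adjusted p = 0.259), ranked 5 of 1720 tested features. T cell replicate 2 weighed on it, since without that library the mean with T cells was 11025 ± 6273 CPM (SD, n = 5) and the log2 fold change 1.24 (edgeR, adjusted p = 0.530).

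miR-29b-3p was at 1427, 1663, 563, 1371, 1517 and 818 CPM in T cell replicates 1 to 6 and at 973, 827, 495, 863, 309.8 and 314 CPM in medium replicates 1 to 6. Again 4 T cell libraries exceeded every medium library. Here T cell replicate 3, which was second highest for miR-29a-3p, was the lowest of its group. The counts were 41 to 143 with T cells and 20 to 108 with medium. The log2 fold change was 0.95 (standard error 0.33, 95% interval 0.25 to 1.64; edgeR, adjusted p = 0.370).

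miR-29c-3p was at 586, 953, 1428, 711, 1129 and 354 CPM in T cell replicates 1 to 6 and at 288, 406, 529.7, 538, 381 and 486 CPM in medium replicates 1 to 6. All T cell libraries except replicate 6 exceeded every medium library, 5 of 6. At least 4 such libraries were seen for 5.64% of the tested features, and the share with at least 5 was not computed. Other miRNAs, such as miR-26a-5p and let-7d-5p, also had 5. Its highest library was T cell replicate 3, not replicate 2. The counts were 42 to 104 with T cells and 28 to 61 with medium. The log2 fold change was 0.96 (standard error 0.30, 95% interval 0.33 to 1.59; edgeR, adjusted p = 0.338).

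Of 1720 tested features edgeR called 0 (0.0%) at an adjusted p under 0.05, with 120 at an unadjusted p under 0.05. limma voom also called 0, with 119 at an unadjusted p under 0.05, and DESeq2 called 44. At an unadjusted p under 0.05 in edgeR, 5.06% of the tested features were higher with T cells, and all 3 members were among them. DESeq2 called 7.13% of the features with an adjusted p higher, and all 3 members were among them, with adjusted p = 0.0130 for miR-29a-3p, adjusted p = 0.0462 for miR-29b-3p and adjusted p = 0.0362 for miR-29c-3p. The median log2 fold change of all tested features was −0.05 in edgeR, and miR-29c-3p and miR-29b-3p ranked 57 and 65 of 1720.

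The DESeq2 call of miR-29a-3p held without any 1 of the 12 libraries, with the highest adjusted p at 0.0412, but was lost without T cell replicate 2 and medium replicate 3 together (adjusted p = 0.183). That of miR-29b-3p was lost without T cell replicate 1 (DESeq2, adjusted p = 0.0956), 2 (0.0907), 4 (0.126) or 5 (0.0953) and without medium replicate 2 (0.0578), 3 (0.0860), 5 (0.0978) or 6 (0.0903). That of miR-29c-3p was lost without T cell replicate 3 (DESeq2, adjusted p = 0.107), 4 (0.0577) or 5 (0.0843) and without medium replicate 1 (0.0882), 2 (0.0723) or 5 (0.0720), and without T cell replicate 2 DESeq2 gave it no adjusted p. Without both T cell replicate 2 and medium replicate 3 the adjusted p was 0.359 for miR-29b-3p and 0.0969 for miR-29c-3p.

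The size of the difference changed with the scaling of the libraries, and its direction was the same under each scaling run. Scaled to total counts, the log2 fold changes in edgeR were 1.16, 0.61 and 0.54 for miR-29a-3p, miR-29b-3p and miR-29c-3p, beside a median of −0.38 over all features. Scaled to the features with a mean count of 100 or more, they were 1.02, 0.48 and 0.34, beside a median of −0.55 over all features. Relative to the median of all features under the same scaling, each member was higher with T cells. That median is set mostly by features of low count, and abundant features as a whole lay above it. Scaled to the features with a mean count of 100 or more, none of the members passed (edgeR, adjusted p = 0.258, 0.364 and 0.490).

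**Figure D2:**
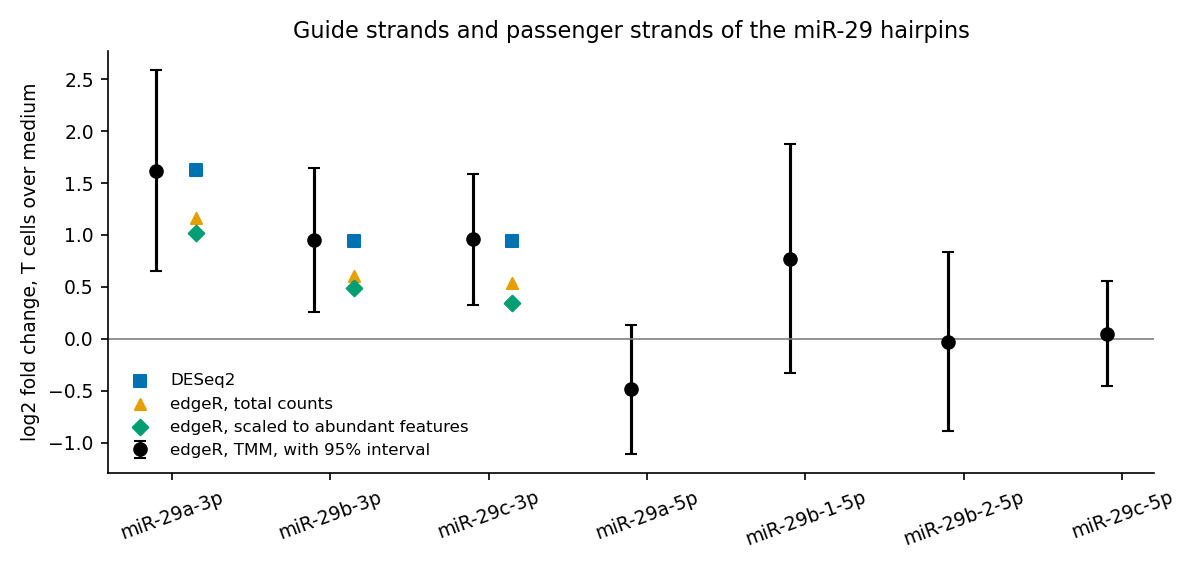
Log2 fold change of T cells over medium for the 3 guide strands and the 4 passenger strands of the miR-29 hairpins, from edgeR after TMM with its 95% interval (black), and for the guide strands also from DESeq2 (squares) and from edgeR under other scalings (triangles, diamonds). The 3 guide strands lie above 0 under every scaling shown, with miR-29a-3p between 1.02 and 1.63, whereas the intervals of the 4 passenger strands all include 0.

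As a share of all counts of a library, the family was at 0.797%, 2.20%, 1.84%, 1.18%, 1.33% and 0.580% in T cell replicates 1 to 6 and at 0.618%, 0.969%, 0.507%, 0.773%, 0.549% and 0.339% in medium replicates 1 to 6. T cell replicates 2, 3, 4 and 5 were above every medium library. The summed level had a mean of 16374 ± 10150 CPM in the T cell group and 5716 ± 2281 CPM in the medium group (SD, n = 6 each). The log2 ratio of these means was 1.52, or 1.19 without T cell replicate 2.

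Within the family, miR-29a-3p dominated in both groups, and no ratio between members passed the test for a difference between the groups. miR-29a-3p made up 84.1 ± 6.53% of the family counts in the T cell group and 79.8 ± 5.97% in the medium group, miR-29b-3p 10.0 ± 5.64% and 11.0 ± 2.77%, and miR-29c-3p 5.91 ± 1.55% and 9.20 ± 5.33% (SD, n = 6 each). The highest share of miR-29a-3p was 92.1% in T cell replicate 2 (95% Wilson interval 91.1 to 93.1%) and the lowest 69.3% in medium replicate 6 (95% Wilson interval 61.9 to 75.8%). Such intervals cover counting error only. Medium replicate 6, the shallowest library, had the highest share of miR-29c-3p at 18.7% (95% Wilson interval 13.5 to 25.3%). The lowest share of miR-29b-3p was 2.58% in T cell replicate 3 (95% Wilson interval 1.91 to 3.48%).

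**Figure D3:**
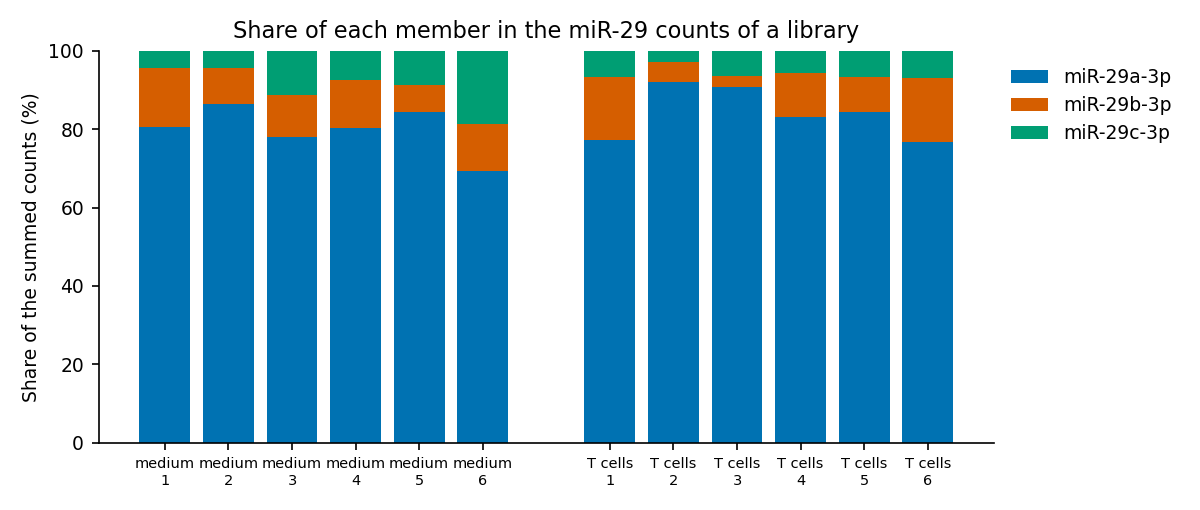
Share of each member in the summed miR-29 counts of a library (stacked bars from 0 to 100%), with the 6 medium libraries on the left and the 6 T cell libraries on the right. miR-29a-3p makes up 69.3 to 92.1% of every bar.

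Ratios within a library do not depend on its scaling. The mean log2 ratio of miR-29a-3p to miR-29b-3p was 3.32 ± 1.14 in the T cell group and 2.88 ± 0.44 in the medium group (SD, n = 6 each), a difference of 0.44 (95% interval −0.67 to 1.56; two-sided exact permutation test, p = 0.422, adjusted p = 0.633 over 3 ratios), which was 0.08 when T cell replicate 3 was left out and 0.27 when replicate 2 was. That of miR-29a-3p to miR-29c-3p was 3.87 ± 0.57 against 3.28 ± 0.89, a difference of 0.59 (95% interval −0.37 to 1.55; two-sided exact permutation test, p = 0.214, adjusted p = 0.633), which was 0.31 without medium replicate 6 and 0.37 without T cell replicate 2. That of miR-29b-3p to miR-29c-3p was 0.55 ± 0.97 against 0.40 ± 0.90, a difference of 0.15 (95% interval −1.05 to 1.35; two-sided exact permutation test, p = 0.779, adjusted p = 0.779), and with single libraries left out this difference ranged from −0.06 (medium replicate 6) to 0.52 (T cell replicate 3). All 3 intervals include 0 and a log2 difference of 1. miR-29b-3p had a higher count than miR-29c-3p in 8 of 12 libraries, 5 with T cells and 3 with medium. In medium replicates 3, 5 and 6 its counts were 57 against 61, 26 against 32 and 20 against 31, with overlapping 95% Wilson intervals. In T cell replicate 3 it had 41 against 104 without overlap, so a clear reversal rests on 1 library.

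The members varied between mice of a group far more than counting error allows for miR-29a-3p. Its coefficient of variation was 68.3% with T cells and 44.5% with medium, where counting error alone gives 3.47% and 5.70%. For miR-29b-3p it was 35.4% and 46.6%, beside 10.7% and 15.5% from counting. For miR-29c-3p it was 45.2% and 22.2%, beside 12.6% and 16.5%, so that in the medium group counting error took up much of its spread. The biological coefficient of variation in edgeR was 0.524 for miR-29a-3p, 0.391 for miR-29b-3p and 0.353 for miR-29c-3p, and the median of the 88 tested features with a mean count of 100 or more was 0.381.

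The passenger strands of the same hairpins had low counts, which scattered around the median count of a library, and none passed a test. Of the 4, miR-29b-1-5p was the lowest, ranked 1487 of 1995 features by mean count. miR-29a-5p had 15 to 28 counts with T cells and 17 to 50 with medium, and averaged 239 ± 50.4 CPM against 333 ± 135 CPM (SD, n = 6 each). Its log2 fold change was −0.49 (standard error 0.30; edgeR, adjusted p = 0.921), opposite in sign to that of its guide strand. miR-29b-1-5p had 4 to 29 counts and a log2 fold change of 0.77 (standard error 0.52; edgeR, adjusted p = 0.990). miR-29b-2-5p had 6 to 39 counts and a log2 fold change of −0.03 (standard error 0.41; edgeR, adjusted p = 0.992), and miR-29c-5p had 17 to 54 counts and 0.05 (standard error 0.24; edgeR, adjusted p = 0.990). DESeq2 gave none of the 4 an adjusted p, because of their low counts.

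**Figure D4:**
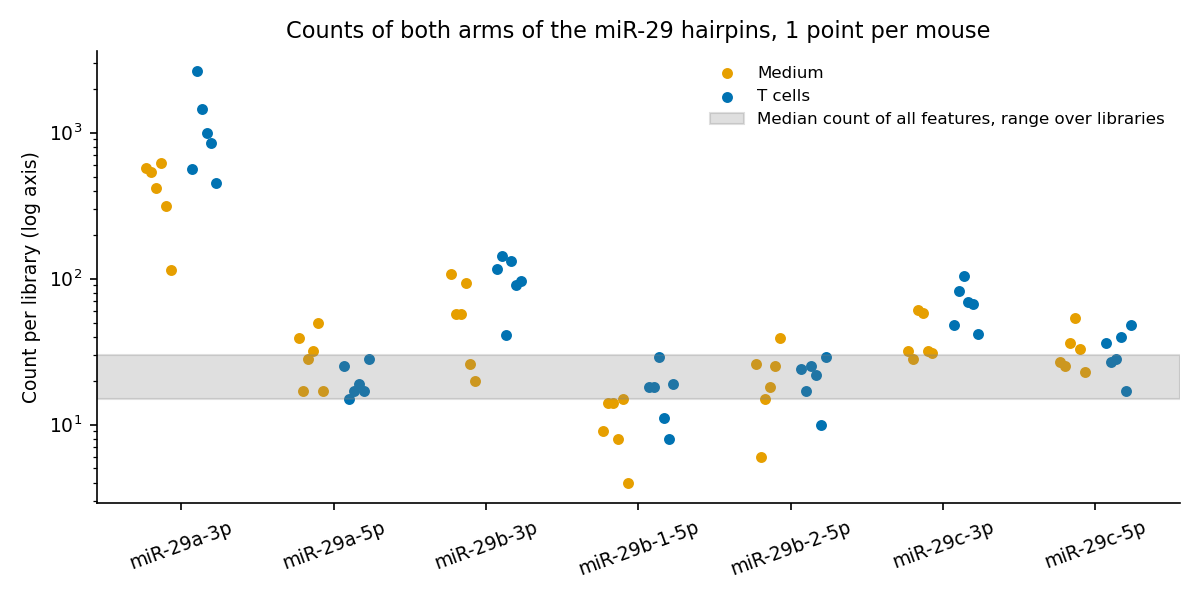
Counts per library (log axis) of both arms of the miR-29 hairpins, 1 point per mouse, medium in orange and T cells in blue. The grey band is the median count of all features, 15 to 30 over the libraries. The 4 passenger strands scatter around this band, from 4 to 54 counts, whereas miR-29a-3p lies above it in every library.

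The ratio of guide to passenger strand was compared after the values had been seen, with 0.5 added to both sides of each ratio. By this ratio, the guide strand miR-29a-3p was at 22.1, 169.8, 82.5, 51.4, 48.4 and 16.0 times miR-29a-5p in T cell replicates 1 to 6. In medium replicates 1 to 6 it was at 14.6, 30.7, 14.7, 19.0, 6.21 and 6.60 times. T cell replicates 2, 3, 4 and 5 lay above every medium library. The mean log2 ratio was higher by 1.87 with T cells (95% interval 0.48 to 3.26; two-sided exact permutation test, p = 0.0152), which did not pass when adjusted over all 6 ratios compared here (adjusted p = 0.0909). For miR-29c the difference was 0.80 (95% interval −0.04 to 1.63; two-sided exact permutation test, p = 0.0736, adjusted p = 0.221), and for miR-29b against both of its passenger strands it was 0.70 (95% interval −0.74 to 2.14; two-sided exact permutation test, p = 0.266, adjusted p = 0.399). miR-29c-3p was at 0.876 to 3.86 times miR-29c-5p with T cells and at 0.970 to 1.69 times with medium. miR-29b-3p was at 0.762 to 4.89 times its passenger strands with T cells and at 0.471 to 3.53 times with medium. These 2 guide strands thus did not outnumber their passenger strands in every library, and the low passenger counts add counting error to the ratios. Of the 16 alternatives run for each ratio, 1 passed for miR-29a and 1 for miR-29c, both without T cell replicate 6 (exact permutation test, adjusted p = 0.0390 for each). In the other alternatives the adjusted p of the exact tests was 0.0520 to 0.286 for miR-29a and 0.169 to 0.442 for miR-29c. For miR-29b the difference ranged from 0.34 without medium replicate 6 to 1.06 without T cell replicate 3.

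Other miRNAs described as regulators of collagen and fibrosis were compared as a list. Of its 13 members, all tested in edgeR, edgeR called 0 and the fold change of 11 was positive. DESeq2 gave 9 of them an adjusted p and called 3 higher and 0 lower, where 7.13% of all features with an adjusted p were called higher. The median log2 fold change was 0.45, beside −0.05 over all tested features. DESeq2 called miR-26a-5p, whose mean was 7163 ± 2145 CPM in the T cell group and 2871 ± 923 CPM in the medium group (SD, n = 6 each; adjusted p = 0.00220). It also called let-7d-5p, a let-7 family member that targets the chromatin factor Hmga2, at 2407 ± 1147 CPM against 1113 ± 292 CPM (adjusted p = 0.0164), and miR-21a-5p, which promotes fibroblast activation by repressing Spry1, at 11051 ± 3709 CPM against 5689 ± 2389 CPM (adjusted p = 0.0499). The merged feature miR-199a-3p/miR-199b-3p was at 1425 ± 589 CPM against 813 ± 441 CPM and did not pass (DESeq2, adjusted p = 0.156).

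Of 10 miRNAs with known roles in immune regulation, all tested in edgeR, edgeR called 0 and the fold change of 8 was positive. Their median log2 fold change was 0.48, beside −0.05 over all tested features. As for the list above, that reference is set mostly by features of low count, and features of like abundance were not compared. This list too was chosen with earlier results of these data known. DESeq2 gave 9 of them an adjusted p and called 2 higher and 0 lower, beside 7.13% of all features called higher. miR-223-3p, a regulator of granulocyte maturation, was called, with a mean of 4875 ± 2429 CPM in the T cell group and 2388 ± 618 CPM in the medium group (SD, n = 6 each; DESeq2, adjusted p = 0.0448). The other called member, miR-146a-5p, which dampens Traf6 and Irak1 signaling and was named after its values were seen, had means of 655 ± 242 CPM and 335 ± 140.0 CPM (T cells and medium, SD, n = 6 each; DESeq2, adjusted p = 0.0448). miR-142a-3p and miR-142a-5p, the 2 arms of a hairpin restricted to blood cells, and miR-150-5p, which accumulates as lymphocytes mature, were at 14880 ± 4699, 1035 ± 300.0 and 1182 ± 594 CPM with T cells. With medium they were at 8456 ± 5229, 645 ± 373 and 893 ± 449 CPM, and DESeq2 called none of these 3 (adjusted p = 0.212, adjusted p = 0.235 and adjusted p = 0.638).

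Marker lists of blood and tissue cells were summed beside the family, and their part in its difference was not tested. The sums overlapped between the groups in every list, and DESeq2 called 7.13% of all features with an adjusted p higher. The 7 T lymphocyte markers summed to 12415 to 29171 CPM with T cells and 6322 to 21615 CPM with medium, and DESeq2 called 1 of them higher. Most of this sum was miR-142a-3p, whose hairpin is restricted to blood cells, not to T cells. Its mean was 14880 of 20321 CPM with T cells and 8456 of 12160 CPM with medium. Mice given medium lack mature T cells and still reached 21615 CPM, so the sum is not specific to T cells. The 5 platelet and myeloid markers summed to 17981 to 55039 CPM against 7890 to 19495 CPM, with 4 called higher by DESeq2. Among the 4 called, miR-21a-5p and miR-223-3p were already counted in the regulator lists above. Another, miR-191-5p, averaged 14995 of 33704 CPM with T cells and 4870 of 14197 CPM with medium. Whether these miRNAs came from platelets or myeloid cells was not tested. The 6 red blood cell markers ranged from 31652 to 228890 CPM with T cells, highest in T cell replicate 2, and from 17491 to 102380 CPM with medium, with 0 called. The 4 endothelial markers summed to 9007 to 33515 CPM against 3780 to 26910 CPM, with 1 called. Liver markers (3) summed to 2471 to 3892 CPM against 1394 to 2855 CPM, fibroblast and smooth muscle markers (5) to 2243 to 4526 CPM against 1788 to 3968 CPM, and muscle markers (3) to 624 to 1634 CPM against 639 to 3213 CPM, with 0 called in each. DESeq2 gave no adjusted p to 1 endothelial, 2 muscle and 2 fibroblast and smooth muscle markers. No marker was at 0 in every library, and edgeR called 0 markers.

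The profile of each member over the 12 libraries was set beside those of 302 other features with a mean count of at least 50 that were detected in every library, as the root mean square (RMS) difference of centred log2 CPM, where a lower value is more alike. The features most like miR-29a-3p were miR-103-3p (0.361), miR-30e-5p (0.395) and miR-191-5p (0.397). Those most like miR-29b-3p were miR-142a-3p (0.441), let-7i-5p (0.456) and miR-195a-5p (0.467), and those most like miR-29c-3p were miR-27b-3p (0.357), miR-126b-5p (0.392) and miR-10a-5p (0.421). The members were less alike to each other, with an RMS difference of 0.742 between miR-29a-3p and miR-29c-3p, 0.822 between miR-29a-3p and miR-29b-3p, and 0.865 between miR-29b-3p and miR-29c-3p. From miR-29a-3p, 44 features were closer than miR-29c-3p, which ranked 45, and miR-29b-3p ranked 52. From miR-29b-3p, miR-29a-3p ranked 87 and miR-29c-3p 120. From miR-29c-3p, miR-29a-3p ranked 118 and miR-29b-3p 188. The median RMS difference was 1.187 from miR-29a-3p and 0.915 from miR-29b-3p, so both other members were more alike to each of these than the median feature. From miR-29c-3p the median was 0.800, with miR-29a-3p below it. Only miR-29b-3p lay above that median and was less like miR-29c-3p than the median feature. All profiles come from the same 12 libraries, whose depth differed, and share their scaling factors, and miRNAs of low counts differ more by counting error alone.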

How the data were processed

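Small RNA libraries of serum bEVs from 12 Rag1-/- mice were analysed, 6 per group. The authors enriched bEVs by ultracentrifugation, prepared libraries with the Qiagen miRNA kit, and trimmed and aligned the reads in Qiagen GeneGlobe. According to the submitters' processing notes, bcl2fastq 2.18.0.12 and the mm10 build were used. The deposited table holds raw counts, not normalized. Per the methods of the study, reads and unique molecular identifiers (UMIs) were both counted and the UMIs normalized for DESeq2, and the table does not say which of them it holds. Library totals were 48997 to 130106.

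Features kept by filterByExpr (1720) were scaled by TMM over the counts of the kept features and compared in edgeR 4.0.16 under R 4.3.3 (quasi-likelihood fit). Adjusted p-values are Benjamini-Hochberg values over every tested feature, with a threshold of 0.05. DESeq2 1.42.0, named in the methods of the study, and limma 3.58.1 (voom with quality weights) were alternatives. Ratios used log2 of counts plus 0.5 and two-sided exact permutation tests over 924 arrangements (scipy 1.17.1; smallest p 0.00216). Intervals of ratio differences come from the pooled spread of the groups. Likeness used features with a mean count of at least 50. The scripts were tested on simulated data. Named miRNAs were the members, their other arms, up to 4 abundant members of each regulator list and the 3 most alike features. Members and lists were chosen with earlier results of these data known. Other scalings, filters, the replicate number as a block, and left-out libraries were tried. DESeq2 with libraries left out, library sizes from all features, and the guide to passenger ratios were chosen after seeing the data.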

Additional observations from a re-analysis of the deposited data

Results flagged for a closer look

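In 5 of 34 sample groups checked, 1 library stood far from the other 5 of its group. For independent groups of normally distributed values, chance gives about 1 in 20. The groups here are levels, shares and ratios of the same miRNAs in the same libraries, so their count cannot be compared with that rate. T cell replicate 2 had the lowest share of miR-29c-3p, at 2.87% of the 3 members against 5.74 to 7.07% in the others, and accordingly the highest log2 ratio of miR-29a-3p to miR-29c-3p, 5.00 against 3.42 to 3.85. T cell replicate 3 had a log2 ratio of miR-29b-3p to miR-29c-3p of −1.33 against 0.42 to 1.28 in the others. The same library had the highest passenger strand miR-29b-1-5p, at 398 CPM against 113 to 219.6 CPM. Medium replicate 5 had miR-29a-5p at 596 CPM against 243 to 351 CPM in the others.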

How the results depend on the processing

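The edgeR count stayed at 0 under every alternative run in edgeR or limma voom, and the 3 log2 fold changes stayed positive. With DESeq2 44 features were called, and the log2 fold changes of miR-29a-3p, miR-29b-3p and miR-29c-3p were 1.63, 0.95 and 0.95. With 1 library left out, the edgeR values ranged from 1.24 to 1.83, 0.81 to 1.12 and 0.76 to 1.12, and with library sizes from all features they were 1.62, 0.95 and 0.96. With 1 library left out, the DESeq2 count ranged from 15 to 68 (21, 26, 27, 21 and 68 without T cell replicates 2, 3, 4, 5 and 6, and 26, 15 and 19 without medium replicates 2, 5 and 6), and the DESeq2 log2 fold changes of the members from 1.24 to 1.84, 0.80 to 1.11 and 0.75 to 1.11. Without T cell replicate 2 and medium replicate 3 together, DESeq2 called 8 features, the members were at 1.19, 0.78 and 0.99, and the difference of the log2 ratio of miR-29b-3p to miR-29c-3p was −0.0014. With 1 library left out that difference ranged from −0.056 to 0.52, and those of the guide to passenger ratios of miR-29a and miR-29c from 1.51 to 2.19 and from 0.62 to 1.05. The cause of these changes was not tested. Same-numbered libraries did not deviate together (correlations of −0.137 to 0.0901), so the numbers were not taken as pairs. With the replicate block edgeR called 0 features, with members at 1.45, 0.99 and 0.88, and the member ratio differences stayed at 0.44, 0.59 and 0.15 (exact sign-flip permutation test, adjusted p = 0.656, 0.375 and 0.719). Counts of 20 to 143 limit miR-29b-3p and miR-29c-3p.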
